A study of Mus musculus with 12 samples.

Results

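Gene-level RNA-seq counts of Smad4 knockout embryoid bodies (S4KO_D4, 2 libraries) were compared with those of wild-type embryoid bodies (WT_D4, 2 libraries), 4 of the 12 libraries of the series, over all 18693 genes with enough counts of the 32285 listed. The 4 libraries were chosen by their titles. All groups are labelled as E14Tg2a.IV, a mouse embryonic stem (ES) cell line. S4KO_D4 carries the label Smad4 knockout and WT_D4 the label wild type, and both had been kept without LIF, the cytokine that holds mouse ES cells undifferentiated, as embryoid bodies for 4 days. Undifferentiated cells of both genotypes (S4KO_D0 and WT_D0) and embryoid bodies of a Smad2/3 double knockout at day 4 (S2/3DKO_D4), 2 libraries each, were used where a result needed them. The labels do not say how the Smad4 allele was made, which part of the gene it removes, or whether the line is 1 clone. Nor do they say that replicates were separate cultures, so p-values measure only the spread between these samples, which may be technical.

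Smad4 is the partner that receptor-activated Smads share. Receptors for Nodal, activin and TGF-beta act through Smad2 and Smad3, those for BMPs through Smad1, Smad5 and Smad9, and each of these joins Smad4 before it binds DNA. In the mouse embryo, Nodal signals in the epiblast and BMP signals from its surroundings start the primitive streak, from which mesoderm and definitive endoderm come, while the visceral endoderm covers the embryo from outside. Embryoid bodies form cells of all these kinds when LIF is withdrawn.

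Total counts were 50876757 and 31566376 in S4KO_D4 and 53604809 and 51618920 in WT_D4, replicate 1 before replicate 2 here and throughout. Levels are CPM, the usual depth-scaled count unit, here with TMM-scaled library sizes. Log2 CPM of the replicates correlated across genes at r = 0.967 in S4KO_D4 and 0.97 in WT_D4, a description over genes, which are not independent replicates. Of the genes with at least 5 CPM, 5.06% differed over 2-fold between the replicates in S4KO_D4 and 12.5% in WT_D4. None of the 10 markers of fibroblast feeder cells that were tested was called. Their summed level was 92.1 and 94.3 CPM in S4KO_D4, against 79.2 and 159 CPM in WT_D4, and Postn and Col3a1 were at or near 0.

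The libraries labelled S4KO stood apart from the others at both days. Hprt (ENSMUSG00000025630, chromosome X, 52988137 to 53021659, build mm10), a purine-salvage enzyme whose loss marked the E14Tg2a line when it was isolated, had 171 and 169 CPM in S4KO_D4, against 0.406 and 0.249 CPM in WT_D4 (log2 fold change 9.0 ± 0.42, adjusted p = 2.87e-06). It had 212 and 203 CPM in S4KO_D0, against 0.455 and 0.627 CPM in WT_D0, so both days and all 4 libraries labelled S4KO carried the transcript. Mid1 (ENSMUSG00000035299, chromosome X, 169685199 to 170005736), which encodes a microtubule-associated ubiquitin ligase, had 1.13 and 35.1 CPM in S4KO_D4, against 421 and 732 CPM in WT_D4 (log2 fold change -5.0 ± 1.06, adjusted p = 0.0417). Its call was lost without WT_D4 replicate 1 (adjusted p = 0.0821) or replicate 2 (0.079). In undifferentiated cells Mid1 stood at 0.248 and 0.396 CPM in S4KO_D0 and 382 and 489.6 CPM in WT_D0. The loss of Smad4 and other differences between the lines cannot be told apart in any result below.

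**Figure D1:**
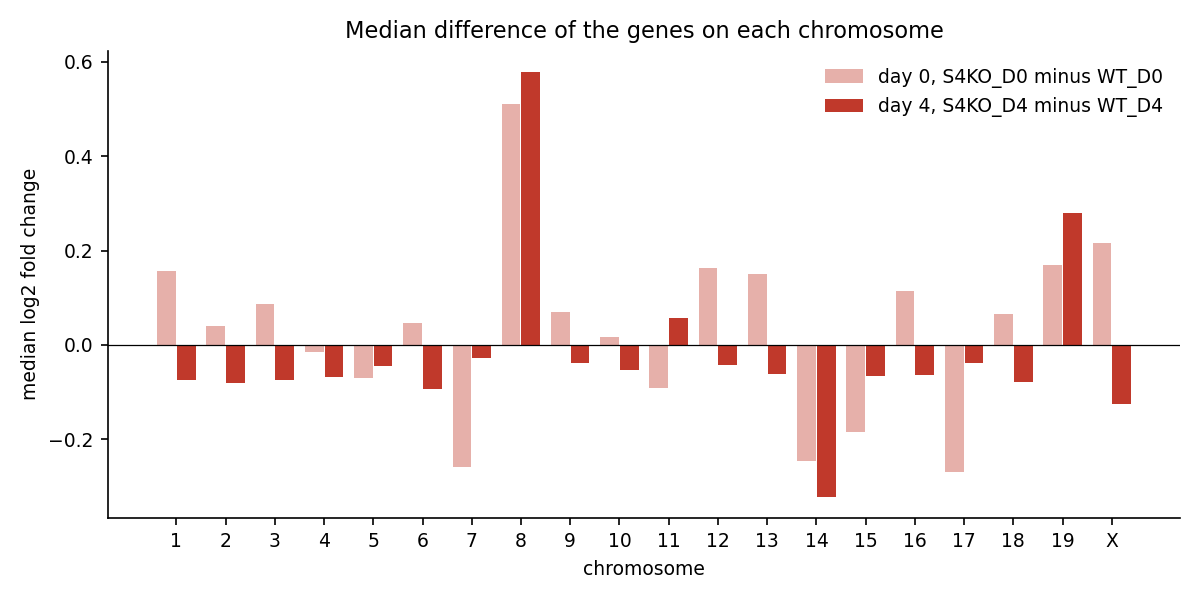
Median log2 fold change (vertical axis) of the genes on each chromosome whose average reached 1 CPM (horizontal axis), S4KO_D0 minus WT_D0 in pale bars and S4KO_D4 minus WT_D4 in dark bars. Chromosome 8 stands highest on both days, at 0.51 at day 0 and 0.58 at day 4.

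Genes on chromosome 8 were shifted as a block. Their median log2 fold change at day 4 was 0.58 over 744 genes, of which 90.7% were positive, against -0.03 over all genes tested. At day 0 the median for chromosome 8 was 0.51, and in S2/3DKO_D4 against WT_D4 it was -0.06. Chromosome 19 had a median of 0.28 and chromosome 14 one of -0.32 at day 4, while the other autosomes and the X chromosome lay between -0.13 and 0.06. The Y chromosome had a median of -0.864 at day 4 over 6 genes, 0% of them positive. Of its 12 genes tested, 2 were called lower in S4KO_D4 and 0 higher. Of the 127 genes called higher in S4KO_D4, 43 (33.9%) lay on chromosome 8, with a median log2 fold change of 1.23 against 2.33 for those elsewhere. The number of copies of chromosome 8 was not tested. Genes on it that are named below are marked as such.

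Across all genes, 323 were called in S4KO_D4 against WT_D4 (edgeR's quasi-likelihood test, Benjamini-Hochberg adjusted p below 0.05), 1.73% of those tested. Of these, 127 were higher (0.679%) and 196 lower (1.05%), so that 39.3% of the calls were higher. Of the 323, the calls on other chromosomes than 8 were 84 higher and 192 lower (30.4% higher). The median log2 fold change was 2.04 among the genes called higher and -2.75 among those called lower. All 323 had groups that did not overlap in CPM, which was true of 40.3% of all genes tested. Separate groups in a called gene named below are thus no further evidence for its call. Removing each library's trend with transcript length and GC content raised the count to 906 with 51.8% higher. The DESeq2 Wald test called 1057 genes, 49.3% of them higher, and unfiltered log2(FPKM + 1) values in limma gave 646, 27.1% higher. A fit of only the 4 libraries of this contrast gave 128 calls, 17.2% higher, and kept 111 of the 323. In it the ligand, Id, naive, primed and trophoblast lists described below held 0 calls. Mid1, Chrd, Pmepa1, Sox7, Apom, Rbp4, Amn, Lgmn, Soat2, Evx1, Aplnr, Flt1, Tgfbi and Ankrd37 were among the named genes that lost their calls. Leaving out a library gave 115 calls (20.9% higher) without WT_D4 replicate 1, 174 without WT_D4 replicate 2, 78 without S4KO_D4 replicate 1 and 578 (52.4% higher) without S4KO_D4 replicate 2. Each of these 4 fits takes the spread of the lone library from the other groups. Of the 323 genes, 51 were called in the same direction in all 4 of them, 15 higher and 36 lower. Of the 70 called genes named here 33 had a fold change that moved by over 1.5-fold when a library was left out. Of these, 23 moved without S4KO_D4 replicate 1, 24 without S4KO_D4 replicate 2, 10 without WT_D4 replicate 2 and 3 without WT_D4 replicate 1. Without S4KO_D4 replicate 2 the log2 fold change was -8.94 for Mid1, -8.04 for T, -7.70 for Aqp8, -7.09 for Prss12 and -5.52 for Aplnr. Without WT_D4 replicate 2 it was -2.61 for Amn and -3.60 for Gsc.

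**Figure D2:**
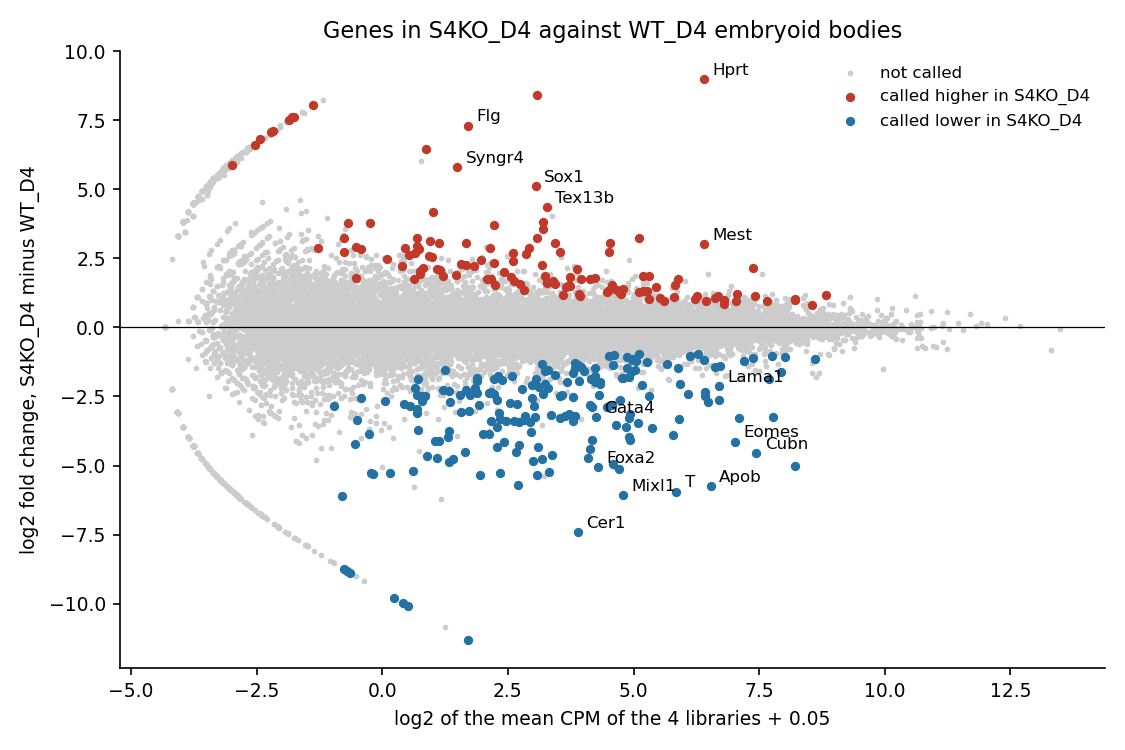
Log2 fold change of S4KO_D4 over WT_D4 (vertical axis) against the log2 mean CPM of the 4 libraries (horizontal axis) for the 18693 genes tested; red points are the 127 called higher, blue points the 196 called lower. Named genes reach from Hprt (9.0) to Cer1 (-7.42), and the curved edges are genes with no counts in 1 of the groups, whose fitted fold change is no bound.

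Of the 8 Smad genes themselves 0 were called in S4KO_D4 against WT_D4 (median log2 fold change -0.35). Smad4 (ENSMUSG00000024515, chromosome 18, 73639009 to 73703780) had 121 and 144 CPM in S4KO_D4, against 137 and 123 CPM in WT_D4. The groups overlapped, and no difference was detectable (log2 fold change 0.03 ± 0.20, adjusted p = 0.980). The label Smad4 knockout is not checked by a count over the whole gene, since the edited part is not given and an edited gene can still be transcribed. Among the Smads of the Nodal branch, Smad2 had 86.3 and 82.1 CPM in S4KO_D4, against 96.9 and 69.1 CPM in WT_D4 (0.02 ± 0.25, adjusted p = 0.993) and Smad3 had 34.2 and 47.5 CPM in S4KO_D4, against 47.7 and 50.3 CPM in WT_D4 (-0.26 ± 0.26, adjusted p = 0.741). Among those of the BMP branch, Smad1 (chromosome 8) had 22.6 and 29.1 CPM in S4KO_D4, against 32.1 and 32.7 CPM in WT_D4 (-0.33 ± 0.24), and Smad5 had 58.1 and 61.1 CPM in S4KO_D4, against 89.5 and 64.2 CPM in WT_D4 (-0.37 ± 0.21). Smad9 was low throughout, at 0.245 and 0.187 CPM in S4KO_D4, against 0.608 and 0.498 CPM in WT_D4 (-1.33 ± 0.49). None of these 5 was called. Of the inhibitory Smads, which feed back on the receptors, Smad6 had 2.53 and 1.34 CPM in S4KO_D4, against 1.68 and 4.94 CPM in WT_D4 (-0.76 ± 0.58). Smad7 had 11.8 and 9.17 CPM in S4KO_D4, against 24.8 and 31.9 CPM in WT_D4 (log2 fold change -1.43 ± 0.39, adjusted p = 0.0936). Both S4KO_D4 libraries were below both WT_D4 libraries for Smad7, but the call was missed. It was made by DESeq2 (0.0079), without the filter (0.0112) and with the length and GC correction (0.0207). At day 0, 4 of the 8 Smad genes were called higher in S4KO_D0 than in WT_D0, where 10.5% of all genes were called higher and 9.14% lower. The 1 called lower there was Smad7 (log2 fold change -1.57).

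Ligand genes of the family mostly showed no detectable difference, with 1 called higher and 1 lower of 16 (median log2 fold change -0.13, against -0.03 over all genes, and 0.14 without S4KO_D4 replicate 1). Bmp2, a BMP ligand, fell to 0.245 and 1.34 CPM in S4KO_D4, against 8.26 and 7.99 CPM in WT_D4 (log2 fold change -3.40 ± 0.66, adjusted p = 0.0280). Gdf3, a ligand that acts with Nodal, rose to 50.8 and 29.4 CPM in S4KO_D4, against 15.2 and 15.8 CPM in WT_D4 (log2 fold change 1.38 ± 0.30, adjusted p = 0.0459). Neither gene's groups overlapped. Both calls were lost without WT_D4 replicate 1 (adjusted p = 0.106 for Bmp2 and 0.165 for Gdf3), WT_D4 replicate 2 (0.0618 and 0.121) or S4KO_D4 replicate 1 (0.105 and 0.395). Nodal had 35.6 and 17.4 CPM in S4KO_D4, against 46.9 and 93.6 CPM in WT_D4 (log2 fold change -1.40 ± 0.43, adjusted p = 0.141), with both WT_D4 libraries above both S4KO_D4 libraries. Bmp4 had 7.83 and 5.88 CPM in S4KO_D4, against 4.15 and 6.19 CPM in WT_D4 (log2 fold change 0.41 ± 0.51, adjusted p = 0.815), and its groups overlapped.

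Of 14 receptor genes, 1 fell and 0 rose (median -0.02, and 0.08 without S4KO_D4 replicate 1). The gene that fell was Tgfbr3, which encodes betaglycan, a co-receptor that presents TGF-beta and inhibin. It had 4.36 and 10.5 CPM in S4KO_D4, against 47.2 and 43.4 CPM in WT_D4 (log2 fold change -2.61 ± 0.39, adjusted p = 0.00843), and each S4KO_D4 library was far below either WT_D4 library. The call held without each library in turn, at adjusted p of at most 0.0417. Tdgf1, which encodes Cripto, the Nodal co-receptor, had 283 and 148 CPM in S4KO_D4, against 603 and 459 CPM in WT_D4 (log2 fold change -1.30 ± 0.37, adjusted p = 0.105).

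Among 12 secreted or membrane antagonists of the family, 3 fell and 0 rose (median -0.66, but -0.175 without S4KO_D4 replicate 1). Cer1, a secreted inhibitor of Nodal, BMP and Wnt ligands that anterior endoderm makes, had 0.132 and 0.218 CPM in S4KO_D4, against 30.2 and 28.6 CPM in WT_D4 (log2 fold change -7.42 ± 0.60, adjusted p = 0.00143), the largest drop by the naming rule. Fst (follistatin, which binds activin) had 3.34 and 10.7 CPM in S4KO_D4, against 118 and 87.3 CPM in WT_D4 (log2 fold change -3.88 ± 0.62, adjusted p = 0.0119). Chrd (chordin, which binds BMPs) had 2.49 and 3.33 CPM in S4KO_D4, against 9.57 and 21.1 CPM in WT_D4 (log2 fold change -2.40 ± 0.42, adjusted p = 0.0201). All 3 were nearly absent or low in both S4KO_D4 libraries and higher in both WT_D4 libraries. Without S4KO_D4 replicate 1 the list held 1 call, and without either WT_D4 library 2. The Cer1 call held without each library (adjusted p at most 0.0234). The Fst call was lost without WT_D4 replicate 1 (0.0531) or S4KO_D4 replicate 1 (0.0876), and the Chrd call without WT_D4 replicate 2 (0.0654) or S4KO_D4 replicate 1 (0.172). Lefty1 and Lefty2, Nodal inhibitors that Nodal itself turns on, did not pass. Lefty1 had 67.04 and 20.2 CPM in S4KO_D4, against 41.4 and 111 CPM in WT_D4 (log2 fold change -0.80 ± 0.59, adjusted p = 0.618), so that S4KO_D4 replicate 1 lay between the WT_D4 libraries. Lefty2 had 66.8 and 17.9 CPM in S4KO_D4, against 88.9 and 109.5 CPM in WT_D4 (log2 fold change -1.23 ± 0.81, adjusted p = 0.566). The other members were not called, with log2 fold changes of -0.11 ± 0.21 for Fstl1, -0.36 ± 0.23 for Bambi, 0.21 ± 0.41 for Fstl3, 0.86 ± 0.35 for Dand5 (chromosome 8), -0.51 ± 0.57 for Nbl1, -0.94 ± 0.83 for Nog and 1.35 ± 1.39 for Grem1.

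Of 16 BMP target genes 2 fell and 0 rose (median -0.56, but -0.19 without WT_D4 replicate 2). Of the 4 Id genes 1 fell (median -0.82, but -0.245 without that library). Before differentiation 6 of the 16 BMP targets were called lower in S4KO_D0 than in WT_D0 and 0 higher (median -0.11). All 4 Id genes were called lower there (median -1.83), against 9.14% of all genes. Id1, which encodes an inhibitor of basic helix-loop-helix factors and is a direct BMP target, had 2.62 and 4.88 CPM in S4KO_D4, against 10.95 and 29.3 CPM in WT_D4 (log2 fold change -2.43 ± 0.45, adjusted p = 0.0227). Id2 had 7.51 and 12.6 CPM in S4KO_D4, against 12.5 and 12.3 CPM in WT_D4 (-0.31 ± 0.27), Id3 had 6.49 and 16.02 CPM in S4KO_D4, against 11.3 and 44.9 CPM in WT_D4 (-1.33 ± 0.65) and Id4 had 8.89 and 6.997 CPM in S4KO_D4, against 6.36 and 4.31 CPM in WT_D4 (0.58 ± 0.35), and none of these 3 was called. Msx1, a homeobox gene of BMP-responsive tissue, had 0.623 and 0.840 CPM in S4KO_D4, against 5.73 and 11.99 CPM in WT_D4 (log2 fold change -3.61 ± 0.57, adjusted p = 0.0102). Both called genes were lower in both S4KO_D4 libraries than in either WT_D4 library. Without S4KO_D4 replicate 1, which leaves replicate 2 alone, the calls of Id1 (adjusted p = 0.197) and Msx1 (0.106) were lost, and that of Id1 also without WT_D4 replicate 2 (0.0578). The BMP target list held 0 calls without S4KO_D4 replicate 1 and 1 call without WT_D4 replicate 2.

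Genes of the primitive streak fell together. Of the 18 tested 12 fell and 0 rose, and their median log2 fold change was -4.22, against 1.05% called lower and a median of -0.03 over all genes. Eomes (ENSMUSG00000032446, chromosome 9, 118478212 to 118486132), a T-box gene switched on early in the streak, had 12.2 and 15.8 CPM in S4KO_D4, against 249 and 241 CPM in WT_D4 (log2 fold change -4.13 ± 0.27, adjusted p = 5.64e-05). T (brachyury), a T-box factor of streak and nascent mesoderm, had 0.415 and 3.39 CPM in S4KO_D4, against 103 and 124 CPM in WT_D4 (log2 fold change -5.94 ± 0.89, adjusted p = 0.00874). Mixl1, a homeobox factor of mesendoderm, had 0.396 and 1.27 CPM in S4KO_D4, against 56.7 and 51.8 CPM in WT_D4 (log2 fold change -6.07 ± 0.73, adjusted p = 0.00274). These 3 were low in both S4KO_D4 libraries and high in both WT_D4 libraries, with S4KO_D4 replicate 2 above replicate 1 in each. In bulk RNA, fewer cells of a type and less RNA per cell cannot be told apart. The promoter sequences of Eomes, Cer1 and Lhx1, which fell, are shown because Smad complexes bind short CAGA boxes in DNA. Each run is the 250 bases before the start of the gene in RefSeq (GRCm38.p6, the mm10 build), 5′ to 3′ on the gene's strand, and capitals mark CAGAC or, on the other strand, GTCTG.
Cer1: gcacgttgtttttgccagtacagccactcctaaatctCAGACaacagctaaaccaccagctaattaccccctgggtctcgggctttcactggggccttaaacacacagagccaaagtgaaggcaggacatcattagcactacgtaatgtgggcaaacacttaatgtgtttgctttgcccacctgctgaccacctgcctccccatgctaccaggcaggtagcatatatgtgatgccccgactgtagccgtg
Lhx1: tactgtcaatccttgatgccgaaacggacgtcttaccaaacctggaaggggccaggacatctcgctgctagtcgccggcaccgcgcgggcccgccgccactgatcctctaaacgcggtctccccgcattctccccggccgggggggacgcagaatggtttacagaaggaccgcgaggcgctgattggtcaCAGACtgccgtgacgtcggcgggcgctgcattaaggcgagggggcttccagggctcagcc
Eomes: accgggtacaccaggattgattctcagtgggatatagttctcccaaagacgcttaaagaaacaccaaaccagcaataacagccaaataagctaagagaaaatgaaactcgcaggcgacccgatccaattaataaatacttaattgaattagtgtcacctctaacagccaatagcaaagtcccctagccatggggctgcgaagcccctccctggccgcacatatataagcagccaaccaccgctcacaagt
The windows lie at chr4:82885152-82885401, minus strand, for Cer1, at chr11:84525535-84525784, minus strand, for Lhx1, and at chr9:118477939-118478188, plus strand, for Eomes. The windows of Cer1 and Lhx1 hold the motif at 1 place each, its first base 213 bases before the start in Cer1 and 60 bases before it in Lhx1, and that of Eomes holds none. Of the 12 streak genes that fell 10 had a promoter window, and 5 of these held the motif in at least 1 window. Over all 32851 promoter windows the share was 42.2%, counted by window and not by gene. A match of 5 letters is a description and not a binding site.

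Genes of the anterior streak and organizer were among them. Gsc, a homeobox gene of the organizer, had 0.208 and 0.311 CPM in S4KO_D4, against 2.97 and 16.6 CPM in WT_D4 (log2 fold change -5.25 ± 0.80, adjusted p = 0.00877). Lhx1, a LIM homeobox gene of the same region, had 0.623 and 2.33 CPM in S4KO_D4, against 45.4 and 55.8 CPM in WT_D4 (log2 fold change -5.13 ± 0.68, adjusted p = 0.00549). Foxa2, a forkhead factor of anterior streak and endoderm, had 1.06 and 1.24 CPM in S4KO_D4, against 30.5 and 45.2 CPM in WT_D4 (log2 fold change -5.04 ± 0.57, adjusted p = 0.00274). In each gene the lower WT_D4 library exceeded both S4KO_D4 libraries, although the WT_D4 replicates of Gsc differed widely from each other. Fgf8, a growth factor of the streak, had 0.774 and 2.30 CPM in S4KO_D4, against 20.7 and 72.2 CPM in WT_D4 (log2 fold change -4.94 ± 0.70, adjusted p = 0.00568), and Sp5, a Wnt-responsive zinc finger gene, had 0.208 and 0.871 CPM in S4KO_D4, against 10.3 and 28.4 CPM in WT_D4 (log2 fold change -5.23 ± 0.96, adjusted p = 0.0223). WT_D4 replicate 2 was the higher of the wild-type libraries in both. Mesp1, the gene of the earliest cardiac mesoderm, had no count in either S4KO_D4 library, against 1.33 and 3.20 CPM in WT_D4, and was at least 62.4-fold lower, with a floor of 3 counts for both S4KO_D4 libraries together (adjusted p = 0.0429; floors cover counting error only). The calls of Eomes, T, Mixl1, Lhx1 and Foxa2 held without each library in turn, at adjusted p of at most 0.036. Without S4KO_D4 replicate 1 the calls of Gsc (adjusted p = 0.105), Fgf8 (0.0522), Sp5 (0.172) and Mesp1 (0.245) were lost. The Sp5 call was also lost without WT_D4 replicate 2 (0.0712). Mesp1 lost its call without WT_D4 replicate 1 (0.0984), WT_D4 replicate 2 (0.106) or S4KO_D4 replicate 2 (0.0713) as well. The other members called were Evx1 (-4.32 ± 0.82) and Nkx1-2 (-2.96 ± 0.58), homeobox genes of the posterior streak, and the ligand gene Wnt3 (-3.42 ± 0.58). Nkx1-2 lost its call when any 1 of the 4 libraries was left out (adjusted p 0.0561 to 0.265). Evx1 lost it without WT_D4 replicate 1 (0.0564), WT_D4 replicate 2 (0.0891) or S4KO_D4 replicate 1 (0.172), and Wnt3 without WT_D4 replicate 2 (0.0564) or S4KO_D4 replicate 1 (0.123). The count for the list was 5 without S4KO_D4 replicate 1 and 7 without WT_D4 replicate 2.

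**Figure D3:**
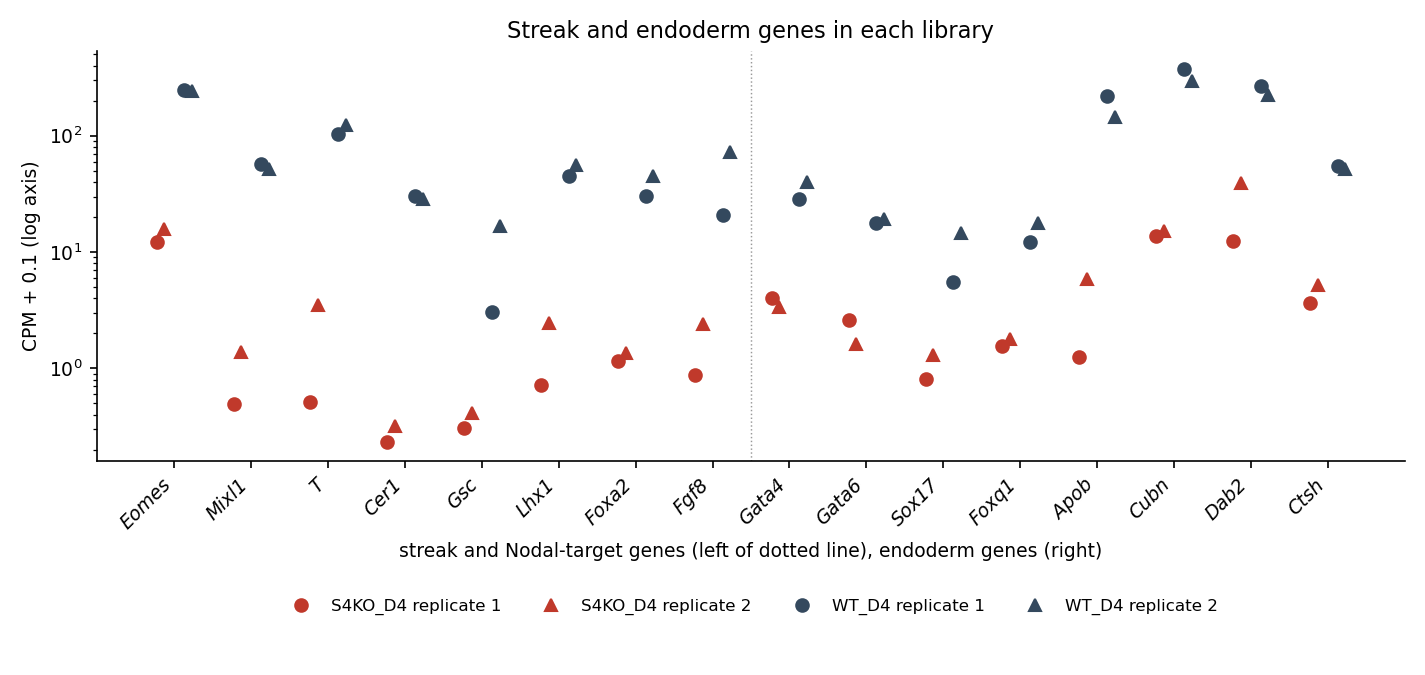
CPM plus 0.1 on a log axis for 16 named genes in each library; S4KO_D4 in red left of WT_D4 in dark blue, circles for replicate 1 and triangles for replicate 2. Every S4KO_D4 point lies below both WT_D4 points of its gene, as in all genes called lower. S4KO_D4 replicate 2 lies above replicate 1 for each of the 8 streak and Nodal-target genes.

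Of the 15 Nodal and activin target genes 8 fell and 0 rose (median -1.96). They were Cer1, Mixl1, Gsc, Lhx1, Foxa2, Fgf8 and Eomes, whose values are given above, and Pmepa1, a feedback inhibitor of Smad signalling. Pmepa1 had 9.59 and 6.81 CPM in S4KO_D4, against 25.5 and 38.4 CPM in WT_D4 (log2 fold change -1.96 ± 0.39, adjusted p = 0.0337), the S4KO_D4 libraries both below the WT_D4 libraries. The Pmepa1 call was lost when any 1 of the 4 libraries was left out (0.0557 to 0.128). Without S4KO_D4 replicate 1 the count of the list was 5. The feedback inhibitors Lefty1, Lefty2 and Smad7 and the ligand Nodal are on this list and did not pass. Among 15 Wnt target genes 3 fell and 0 rose (median -0.37), T, Sp5 and the secreted Wnt inhibitor Dkk1. Dkk1 had 0.472 and 0.684 CPM in S4KO_D4, against 9.96 and 10.2 CPM in WT_D4 (log2 fold change -4.14 ± 0.57, adjusted p = 0.00549), and the call was lost without S4KO_D4 replicate 1 (0.0626). Without that library the Wnt list held 1 call.

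Transcription factors of endoderm fell. Of 12 tested, 7 fell and 0 rose, all 12 had negative fold changes, and their median was -2.89. Gata4, a zinc finger factor of extraembryonic endoderm and later heart, had 3.89 and 3.27 CPM in S4KO_D4, against 28.7 and 39.9 CPM in WT_D4 (log2 fold change -3.26 ± 0.30, adjusted p = 0.000550). Gata6, its relative in the same tissue, had 2.53 and 1.52 CPM in S4KO_D4, against 17.8 and 19.04 CPM in WT_D4 (log2 fold change -3.17 ± 0.51, adjusted p = 0.0119). Foxq1, a forkhead gene, had 1.45 and 1.68 CPM in S4KO_D4, against 12.1 and 17.6 CPM in WT_D4 (log2 fold change -3.25 ± 0.39, adjusted p = 0.00274). For these 3 the S4KO_D4 libraries lay close together and well under the WT_D4 libraries. Sox17, an HMG-box factor of endoderm, had 0.717 and 1.21 CPM in S4KO_D4, against 5.48 and 14.3 CPM in WT_D4 (log2 fold change -3.37 ± 0.74, adjusted p = 0.0468), and Sox7, of parietal and visceral endoderm, had 1.001 and 1.74 CPM in S4KO_D4, against 8.44 and 8.18 CPM in WT_D4 (log2 fold change -2.61 ± 0.43, adjusted p = 0.0133). Members that did not pass included Hnf4a (-1.50 ± 0.46, adjusted p = 0.139), Foxa1 (-1.69 ± 0.46, 0.0957), Hhex (-0.83 ± 0.32, 0.241) and Foxa3 (-0.14 ± 0.48, 0.958). The calls of Foxa2, Gata4 and Foxq1 held without each library (adjusted p at most 0.036). Sox17 lost its call when any 1 of the 4 libraries was left out (0.0569 to 0.337). Gata6 lost its call without S4KO_D4 replicate 1 (0.0586), and Sox7 without that library (0.136) or WT_D4 replicate 1 (0.0564). Without S4KO_D4 replicate 1 the list held 4 calls. Of 12 definitive endoderm genes 5 fell, among them Cer1, Gsc, Foxa2 and Sox17, and 0 rose (median -1.74). Without S4KO_D4 replicate 1 it held 2 calls and without WT_D4 replicate 2 it held 3.

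Secreted products of visceral endoderm fell with them, 7 of the 13 tested and none higher (median -4.47). Apob, which encodes the apolipoprotein of lipid-rich particles, had 1.15 and 5.75 CPM in S4KO_D4, against 219 and 146 CPM in WT_D4 (log2 fold change -5.75 ± 0.73, adjusted p = 0.00363). Apoa1 had 0.283 and 1.06 CPM in S4KO_D4, against 7.74 and 17.01 CPM in WT_D4 (log2 fold change -4.25 ± 0.71, adjusted p = 0.0148), and Apoa4 had 0.170 and 0.964 CPM in S4KO_D4, against 9.01 and 21.6 CPM in WT_D4 (log2 fold change -4.82 ± 0.82, adjusted p = 0.0311); both encode apolipoproteins. S4KO_D4 replicate 2 was above replicate 1 in all 3 and still below both WT_D4 libraries. Spink1, a trypsin inhibitor, had 0.415 and 1.27 CPM in S4KO_D4, against 23.3 and 16.6 CPM in WT_D4 (log2 fold change -4.60 ± 0.85, adjusted p = 0.0239). Apom, another apolipoprotein gene, had 0.378 and 0.902 CPM in S4KO_D4, against 5.05 and 5.38 CPM in WT_D4 (log2 fold change -3.06 ± 0.49, adjusted p = 0.0122), and Rbp4, of the retinol carrier, had 1.91 and 2.52 CPM in S4KO_D4, against 6.08 and 9.02 CPM in WT_D4 (log2 fold change -1.77 ± 0.38, adjusted p = 0.0429). Fgb, a fibrinogen chain, had no count in S4KO_D4 against 1.16 and 1.21 CPM in WT_D4, at least 32.9-fold lower (adjusted p = 0.0311). Afp, the fetal serum protein, had 0 and 2.95 CPM in S4KO_D4, against 52.2 and 42.9 CPM in WT_D4 and was not called (-5.07 ± 1.36, adjusted p = 0.0983); it was called without S4KO_D4 replicate 2 (0.00391). Apob kept its call without each library (at most 0.0205). Rbp4 lost its call when any 1 of the 4 was left out (0.0625 to 0.305), and Apoa4 and Fgb without either WT_D4 library or S4KO_D4 replicate 1 (0.0512 to 0.176). Apoa1 was lost without WT_D4 replicate 2 (0.0564) or S4KO_D4 replicate 1 (0.104), Spink1 without WT_D4 replicate 1 (0.0914) or S4KO_D4 replicate 1 (0.212), and Apom without S4KO_D4 replicate 1 (0.111). The list held 3 calls without either WT_D4 library and 2 without S4KO_D4 replicate 1.

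The endocytic machinery of visceral endoderm showed the same direction, with 7 of 10 genes lower, 0 higher and a median of -3.09. Cubn, the endocytic receptor cubilin, had 13.7 and 14.99 CPM in S4KO_D4, against 372 and 296 CPM in WT_D4 (log2 fold change -4.54 ± 0.56, adjusted p = 0.00310). Its partner Amn (amnionless) had 0.566 and 1.09 CPM in S4KO_D4, against 4.72 and 27.7 CPM in WT_D4 (log2 fold change -4.31 ± 0.92, adjusted p = 0.0429), and the adaptor Dab2 had 12.3 and 38.9 CPM in S4KO_D4, against 270.1 and 226 CPM in WT_D4 (log2 fold change -3.28 ± 0.49, adjusted p = 0.00874). The S4KO_D4 libraries agree closely for Cubn, whereas Dab2 was higher in S4KO_D4 replicate 2 than in replicate 1. Of the lysosomal proteases, Ctsh (cathepsin H) had 3.57 and 5.07 CPM in S4KO_D4, against 54.4 and 51.5 CPM in WT_D4 (log2 fold change -3.62 ± 0.39, adjusted p = 0.00143), Ctsc (cathepsin C) had 7.10 and 14.9 CPM in S4KO_D4, against 128 and 90.5 CPM in WT_D4 (log2 fold change -3.32 ± 0.42, adjusted p = 0.00343) and Lgmn (legumain) had 57.8 and 57.002 CPM in S4KO_D4, against 132 and 172 CPM in WT_D4 (log2 fold change -1.41 ± 0.28, adjusted p = 0.0316). Soat2, a cholesterol esterifying enzyme, had 2.47 and 1.49 CPM in S4KO_D4, against 5.99 and 8.56 CPM in WT_D4 (log2 fold change -1.87 ± 0.37, adjusted p = 0.0323). Lrp2, which encodes megalin, had 77.3 and 282 CPM in S4KO_D4, against 592 and 546 CPM in WT_D4 and was not called (0.160), although it was called without S4KO_D4 replicate 2 (0.0206). Pla2g12b (-2.90 ± 0.71) and Slc39a5 (-0.87 ± 0.76) were not called. Cubn, Dab2, Ctsh and Ctsc kept their calls without each library (at most 0.0464). Lgmn and Soat2 lost theirs when any 1 of the 4 was left out (0.0559 to 0.204), and Amn without WT_D4 replicate 2 (0.135), S4KO_D4 replicate 1 (0.315) or S4KO_D4 replicate 2 (0.0739). The list held 4 calls without WT_D4 replicate 2 or without S4KO_D4 replicate 1. Among 11 basement membrane genes, which endoderm secretes in quantity, only Lama1, the laminin alpha-1 chain, was called. Lama1 had 39.9 and 37.7 CPM in S4KO_D4, against 141 and 195 CPM in WT_D4 (log2 fold change -2.12 ± 0.23, adjusted p = 0.00156), with the S4KO_D4 libraries together and under the others, and the call held without each library (at most 0.0286). The median of that list was -0.59, and 0.04 without WT_D4 replicate 2.

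Mesoderm genes fell only in part. Of 18 tested 4 fell and 0 rose, but the list's median was 0.29, opposite in sign to its calls, and it was -0.47 with a minimum of 1 CPM in 2 libraries. Mesp1 and Lhx1 were given above. Aplnr, the apelin receptor of early mesoderm, had 0.302 and 1.87 CPM in S4KO_D4, against 14.99 and 13.9 CPM in WT_D4 (log2 fold change -3.77 ± 0.70, adjusted p = 0.0339). Pdgfra, a growth factor receptor of mesoderm and primitive endoderm, had 4.002 and 4.54 CPM in S4KO_D4, against 34.9 and 28.3 CPM in WT_D4 (log2 fold change -2.89 ± 0.38, adjusted p = 0.00445). The groups were well apart in both. Among 12 blood and endothelial genes, 1 fell and 0 rose (median 0.75, and -0.03 with a minimum of 1 CPM in 2 libraries). It was Flt1, a VEGF receptor, at 13.1 and 20.4 CPM in S4KO_D4, against 50.6 and 45.8 CPM in WT_D4 (log2 fold change -1.53 ± 0.34, adjusted p = 0.0491). Aplnr and Flt1 lost their calls without WT_D4 replicate 1 (0.122 and 0.162), WT_D4 replicate 2 (0.0681 and 0.0743) or S4KO_D4 replicate 1 (0.0534 and 0.379), and Pdgfra without the last of these (0.0534). The mesoderm list held 2 calls without either WT_D4 library and 1 without S4KO_D4 replicate 1.

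On the other side, early neural markers were among the largest rises. Of 19 neuroectoderm genes 2 rose and 0 fell (background 0.679% higher), with a median of 0.84, against -0.07 on the log2(FPKM + 1) scale over genes with a mean of at least 1 FPKM. Sox1 (chromosome 8), an HMG-box factor that marks neural commitment, had 7.78 and 24.4 CPM in S4KO_D4, against 0.572 and 0.345 CPM in WT_D4 (log2 fold change 5.12 ± 0.65, adjusted p = 0.00358). Pax6, a paired-box factor of neuroectoderm, had 18.97 and 15.1 CPM in S4KO_D4, against 1.33 and 1.09 CPM in WT_D4 (log2 fold change 3.82 ± 0.55, adjusted p = 0.00663). Both were at or near 1 CPM or less in WT_D4. S4KO_D4 replicate 2 was the higher library for Sox1 and replicate 1 for Pax6. Both were higher before differentiation too, at 9.26 and 7.02 CPM in S4KO_D0 against 1.53 and 1.43 CPM in WT_D0 for Sox1 (2.46, adjusted p = 0.0164) and 11.9 and 9.50 CPM in S4KO_D0 against 2.44 and 2.36 CPM in WT_D0 for Pax6 (2.16, adjusted p = 0.0174). Other members were not called, among them Nes with 34.3 and 106 CPM in S4KO_D4, against 132 and 144 CPM in WT_D4 (-0.98 ± 0.39) and Zic2 with 30.8 and 75.6 CPM in S4KO_D4, against 123 and 160.2 CPM in WT_D4 (-1.41 ± 0.57). The Sox1 call held without each library (at most 0.0354), and the Pax6 call was lost without WT_D4 replicate 1 (0.0523) or replicate 2 (0.056).

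The knockout libraries differed from each other in genes of naive and primed pluripotency. All 19 naive genes were higher in S4KO_D4 replicate 1 than in replicate 2, by a median log2 ratio of 1.17, against 0.10 in WT_D4. The 16 primed epiblast genes went the other way, with a median of -1.02 in S4KO_D4 and -0.18 in WT_D4, and 2 of them higher in replicate 1. The shared pluripotency genes had medians of -0.13 in S4KO_D4 and 0.08 in WT_D4. Esrrb, a nuclear receptor of naive cells, had 432 and 168 CPM in S4KO_D4, against 64.1 and 92.5 CPM in WT_D4 (log2 fold change 1.94 ± 0.47, adjusted p = 0.0679). Dnmt3b, a DNA methyltransferase of primed cells, had 248 and 793 CPM in S4KO_D4, against 1398 and 1557 CPM in WT_D4 (log2 fold change -1.51 ± 0.48, adjusted p = 0.160). For both genes S4KO_D4 replicate 2 lay between replicate 1 and the WT_D4 libraries. What sets the S4KO_D4 replicates apart was not tested.

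**Figure D4:**
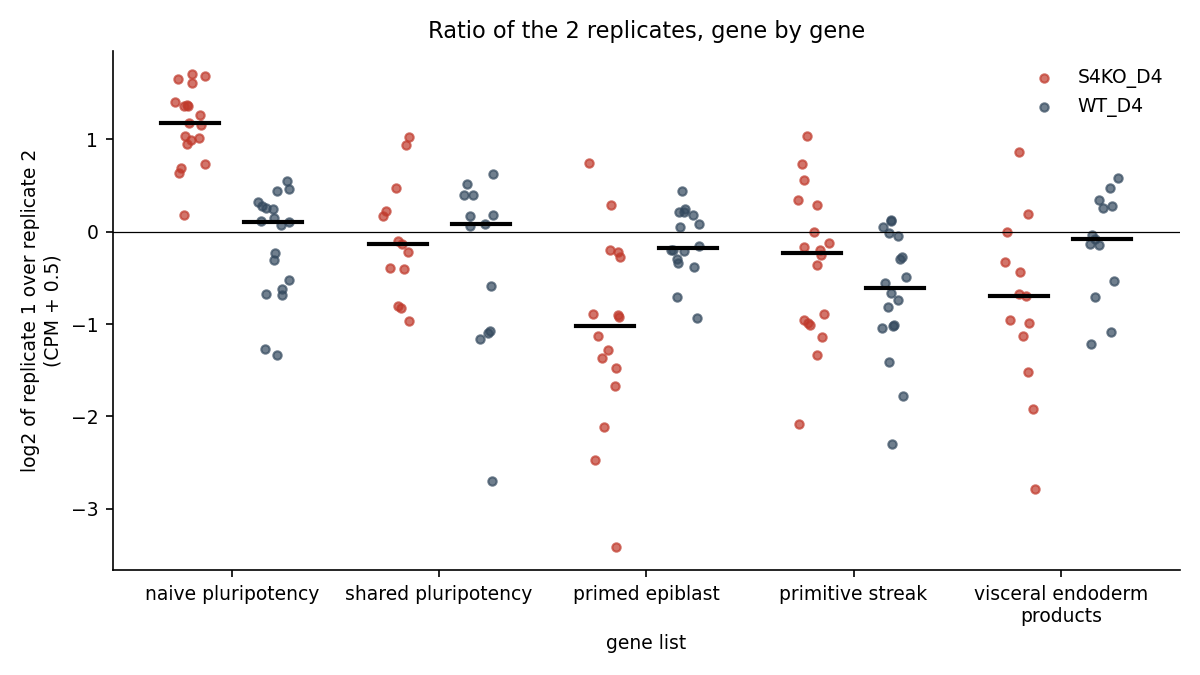
Log2 ratio of replicate 1 over replicate 2 (vertical axis, CPM plus 0.5) for each gene of 5 lists (horizontal axis), S4KO_D4 in red left of WT_D4 in dark blue; black lines are medians. The 19 naive genes of S4KO_D4 are all above 0 (median 1.17) and most of its primed genes are below 0 (median -1.02), while the WT_D4 medians for these 2 lists are 0.10 and -0.18.

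Of the 19 naive genes 2 rose and 0 fell in S4KO_D4 against WT_D4 (median 1.53, but 0.485 without S4KO_D4 replicate 1 and 2.16 without replicate 2). Zfp42 (Rex1, chromosome 8) had 376 and 168 CPM in S4KO_D4, against 61.98 and 59.1 CPM in WT_D4 (log2 fold change 2.17 ± 0.48, adjusted p = 0.0479), and Dppa3 (Stella) had 32.04 and 15.5 CPM in S4KO_D4, against 7.36 and 6.82 CPM in WT_D4 (log2 fold change 1.75 ± 0.36, adjusted p = 0.0351). Both lost their calls without either WT_D4 library or S4KO_D4 replicate 1 (0.116 to 0.369). Without S4KO_D4 replicate 2 the list held 9 calls, all higher, and without any other library 0. Of the naive factors that were not called, Tfcp2l1 had 194 and 75.04 CPM in S4KO_D4, against 65.6 and 47.6 CPM in WT_D4 (1.25 ± 0.36), Klf2 (chromosome 8) had 131 and 65.8 CPM in S4KO_D4, against 17.8 and 43.7 CPM in WT_D4 (1.68 ± 0.66) and Klf5 had 93.4 and 60.05 CPM in S4KO_D4, against 39.6 and 33.1 CPM in WT_D4 (1.08 ± 0.46). Dppa4 gave 0.41 ± 0.26. Nanog had 342 and 205 CPM in S4KO_D4, against 290.0 and 245 CPM in WT_D4 (0.03 ± 0.24), and its groups overlapped.

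Of the 16 primed genes 1 fell, 0 rose and all 16 had negative fold changes (median -1.16, but -0.835 without S4KO_D4 replicate 1 and -2.14 without replicate 2). Fgf15, a growth factor gene, had 5.76 and 11.4 CPM in S4KO_D4, against 27.03 and 31.04 CPM in WT_D4 (log2 fold change -1.77 ± 0.33, adjusted p = 0.0258) and lost its call without either WT_D4 library or S4KO_D4 replicate 1 (0.0618 to 0.172). Fgf5, the standard marker of primed epiblast, had 8.84 and 98.9 CPM in S4KO_D4, against 189 and 167 CPM in WT_D4 and was not called (-1.72 ± 0.87, adjusted p = 0.408). Its S4KO_D4 replicates differed by far more than those of WT_D4. Otx2, a homeobox factor of primed epiblast, had 54.9 and 120.3 CPM in S4KO_D4, against 276 and 237 CPM in WT_D4 (-1.55 ± 0.40, adjusted p = 0.0823), and Sall2 had 18.05 and 79.8 CPM in S4KO_D4, against 136 and 167 CPM in WT_D4 (-1.63 ± 0.59, 0.212). Without S4KO_D4 replicate 2 these 3 and Dnmt3b were called, and the list held 6 calls, all lower. Without any other library it held 0. Among 13 genes shared by naive and primed cells 0 were called (median -0.43). Pou5f1 (Oct4) had 569 and 408 CPM in S4KO_D4, against 430.3 and 906 CPM in WT_D4 (-0.45 ± 0.32), and Sox2 had 323 and 287 CPM in S4KO_D4, against 187 and 179 CPM in WT_D4 (0.73 ± 0.31).

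The genes with the widest ratios between the S4KO_D4 replicates were looked up in both groups. Higher in replicate 1 were Adam1a, with 42.4 and 0.933 CPM in S4KO_D4, against 43.97 and 21.5 CPM in WT_D4, and Stra8, a gene of meiotic entry, with 36.6 and 2.46 CPM in S4KO_D4, against 1.07 and 1.32 CPM in WT_D4. Next came Dazl, a germ cell RNA-binding protein gene, with 38.9 and 7.46 CPM in S4KO_D4, against 18.9 and 9.02 CPM in WT_D4, Mobp with 18.2 and 3.55 CPM in S4KO_D4, against 3.61 and 3.53 CPM in WT_D4 and Adgre5 (chromosome 8) with 79.3 and 17.01 CPM in S4KO_D4, against 11.3 and 17.3 CPM in WT_D4. Higher in replicate 2 were Mid1 and Fgf5, given above, and Tagln, a smooth muscle actin-binding protein gene, with 2.57 and 32.8 CPM in S4KO_D4, against 23.98 and 30.7 CPM in WT_D4. Sema3c, a secreted guidance cue, had 3.61 and 32.7 CPM in S4KO_D4, against 19.5 and 14.7 CPM in WT_D4, and Thbs1 (thrombospondin 1) had 8.89 and 72.1 CPM in S4KO_D4, against 27.7 and 31.4 CPM in WT_D4. Among the genes called lower, 79.6% were higher in S4KO_D4 replicate 2 than in replicate 1, against 50.3% of all genes. Among those called higher, 78% were higher in replicate 1, against 47.7% of all genes. Replicate 1 was thus the library farther from WT_D4 for most called genes, as a description of the libraries that made the calls.

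By the naming rule, the largest rises after Hprt were those of Flg, Syngr4, Sox1, Tex13b, Pax6, Catsperz, Plagl1, Hormad1 and Plekha4. Flg (filaggrin, an epidermal protein) had 6.80 and 5.91 CPM in S4KO_D4, against 0.0369 and 0.0383 CPM in WT_D4 (log2 fold change 7.31 ± 0.90, adjusted p = 0.00429). Syngr4, a synaptogyrin gene, had 6.66 and 4.20 CPM in S4KO_D4, against 0.0922 and 0.0958 CPM in WT_D4 (log2 fold change 5.82 ± 0.52, adjusted p = 0.000550). Tex13b, an X-linked germ cell gene, had 20.2 and 16.5 CPM in S4KO_D4, against 0.903 and 0.881 CPM in WT_D4 (log2 fold change 4.36 ± 0.40, adjusted p = 0.000550). All 3 were near 0 or below 1 CPM in WT_D4. Hormad1, a meiotic chromosome axis gene, had 84.5 and 40.8 CPM in S4KO_D4, against 8.31 and 5.04 CPM in WT_D4 (log2 fold change 3.23 ± 0.36, adjusted p = 0.00156), Catsperz, of a sperm calcium channel, had 11.1 and 5.94 CPM in S4KO_D4, against 0.608 and 0.690 CPM in WT_D4 (log2 fold change 3.72 ± 0.38, adjusted p = 0.00118), and Plekha4 had 18.4 and 12.1 CPM in S4KO_D4, against 1.05 and 2.20 CPM in WT_D4 (log2 fold change 3.23 ± 0.40, adjusted p = 0.00310). Before differentiation Syngr4 (log2 fold change 2.95), Tex13b (5.29), Hormad1 (1.90) and Catsperz (1.19) were also called higher in S4KO_D0 than in WT_D0. So was Flg, at 2.75 and 5.11 CPM in S4KO_D0 and no count in WT_D0. Plekha4 was not called at day 0 (-0.26). At day 4 S4KO_D4 replicate 1 was the higher library in all 6 genes. Their calls and that of Hprt held without each library in turn (at most 0.0437). The largest drops outside the lists above were those of Aqp8, a water channel gene, with 0.0566 and 0.466 CPM in S4KO_D4, against 11.1 and 14.2 CPM in WT_D4 (log2 fold change -5.72 ± 0.91, adjusted p = 0.0110), and Prss12, a serine protease gene, with 0.113 and 0.746 CPM in S4KO_D4, against 14.8 and 17.7 CPM in WT_D4 (log2 fold change -5.33 ± 0.77, adjusted p = 0.0166). The Aqp8 call was lost without S4KO_D4 replicate 1 (0.0637) and the Prss12 call without WT_D4 replicate 1 (0.0543) or replicate 2 (0.0514).

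Of 22 imprinted genes 2 rose and 0 fell (median -0.07, and 0.07 without S4KO_D4 replicate 1). Mest had 136 and 167 CPM in S4KO_D4, against 19.3 and 17.9 CPM in WT_D4 (log2 fold change 3.03 ± 0.34, adjusted p = 0.00156), and Plagl1, a zinc finger gene, had 17.1 and 16.7 CPM in S4KO_D4, against 1.35 and 1.48 CPM in WT_D4 (log2 fold change 3.58 ± 0.44, adjusted p = 0.00310). The replicates were close and the groups far apart in both, and both calls held without each library (at most 0.0353). They were higher in undifferentiated knockout cells as well, Mest at 120.5 and 83.3 CPM in S4KO_D0 against 6.06 and 11.6 CPM in WT_D0 (3.53, adjusted p = 0.00176) and Plagl1 at 7.14 and 3.69 CPM in S4KO_D0 against 0.551 and 0.735 CPM in WT_D0 (3.06, adjusted p = 0.00618). Of 12 germ cell genes 3 rose and 1 fell (median 1.01, but 0.35 without S4KO_D4 replicate 1 and 1.58 without replicate 2). Besides Tex13b and Dppa3, Tfap2c, which also marks trophoblast, rose to 101 and 66.6 CPM in S4KO_D4, against 26.05 and 31.8 CPM in WT_D4 (log2 fold change 1.53 ± 0.24, adjusted p = 0.0110). Sycp3, of the meiotic synaptonemal complex, fell to 22.3 and 20.6 CPM in S4KO_D4, against 142 and 86.1 CPM in WT_D4 (log2 fold change -2.41 ± 0.37, adjusted p = 0.00877). Both lost their calls without WT_D4 replicate 1 (0.0716 and 0.0523) or S4KO_D4 replicate 1 (0.102 and 0.0832).

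To ask whether the knockout differed from wild type otherwise after differentiation than before it, the effect at day 4 was set against that at day 0. At day 0, 3663 genes (19.6%) were called in S4KO_D0 against WT_D0, 1955 higher (10.5%) and 1708 lower (9.14%). Of the 127 genes higher at day 4, 61 were also called higher at day 0 (48% of the day 4 list and 3.12% of the day 0 list) and 1 lower. Of the 196 lower at day 4, 52 were also called lower at day 0 (26.5% and 3.04%), 14 were called higher and 130 were not called. These comparisons share no library. The difference of the effects itself was called for 28 genes (0.15%), 2 higher (0.0107%) and 26 lower (0.139%). That count was 14 without WT_D0 replicate 1, 16 without WT_D4 replicate 1, 81 without S4KO_D4 replicate 2, 712 without S4KO_D0 replicate 2 and 2008 without WT_D4 replicate 2.

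The 26 held 4 of the 12 endoderm factors (Foxa2, Gata4, Gata6 and Sox7) and 2 of the 18 streak genes (Eomes and Foxa2). In 19 of the 26 both WT_D0 libraries lay below all 8 libraries of S4KO_D4, WT_D4, S2/3DKO_D4 and S4KO_D0. Eomes had 12.2 and 15.8 CPM in S4KO_D4, against 249 and 241 CPM in WT_D4, but 8.28 and 11.3 CPM in S4KO_D0, against 3.95 and 4.24 CPM in WT_D0 (log2 difference of the effects -5.39 ± 0.37, adjusted p = 0.000175). Gata4 had 3.15 and 3.53 CPM in S4KO_D0 and 1.03 and 1.08 CPM in WT_D0 (-4.92 ± 0.42, adjusted p = 0.000430). In both genes the knockout was above wild type at day 0 and below it at day 4. The same turn was seen for Cemip, a hyaluronan-binding protein gene (-7.84 ± 0.67, adjusted p = 0.000430), Adamts9, a secreted metalloprotease gene (-3.43 ± 0.29, adjusted p = 0.000430), and Srgn, a proteoglycan gene (-5.16 ± 0.46, adjusted p = 0.000497). Cemip had 0.566 and 0.715 CPM in S4KO_D4, against 17.3 and 17.5 CPM in WT_D4, Adamts9 had 22.9 and 24.5 CPM in S4KO_D4, against 171 and 140.1 CPM in WT_D4 and Srgn had 3.40 and 3.79 CPM in S4KO_D4, against 60.5 and 51.8 CPM in WT_D4. Pdgfra (-4.98 ± 0.56, adjusted p = 0.00412), Lama1 (-2.86 ± 0.32, adjusted p = 0.00412), Gata6 (-5.54 ± 0.74, adjusted p = 0.0149), Sox7 (-4.51 ± 0.65, adjusted p = 0.0230) and Tgfbr3 (-4.01 ± 0.55, adjusted p = 0.0174) were also above wild type at day 0 and below it at day 4. Some of these day 0 levels were very low. Cemip had 1.78 and 0.733 CPM in S4KO_D0, against 0.120 and 0.173 CPM in WT_D0. Sox7 had 0.683 and 0.793 CPM in S4KO_D0, against 0.288 and 0.108 CPM in WT_D0. Pdgfra had 1.74 and 1.72 CPM in S4KO_D0, against 0.240 and 0.562 CPM in WT_D0. Lama1 was not low, at 113 and 81.9 CPM in S4KO_D0, against 57.1 and 59.1 CPM in WT_D0. Foxa2 was on the list too, with 0.269 and 0.198 CPM in S4KO_D0 and no counts in WT_D0. Apob (-6.96 ± 1.01, adjusted p = 0.0230), Cubn (-5.46 ± 0.80, adjusted p = 0.0230) and Ctsh (-4.14 ± 0.54, adjusted p = 0.0116) were low in both genotypes at day 0. Of the 2 higher genes, Plekha4 (3.49 ± 0.53, adjusted p = 0.0287) meets the naming rule. Leaving out each of the 8 libraries in turn kept the calls of Eomes, Gata4, Cemip, Adamts9, Srgn, Pdgfra and Lama1 (adjusted p at most 0.04). At least 1 such fit lost the calls of Gata6 (up to 0.129), Sox7 (0.0797), Tgfbr3 (0.163), Apob (0.194), Cubn (0.194), Ctsh (0.098) and Plekha4 (0.194). Of 20 named genes 10 had a fold difference between the effects that moved by over 1.5-fold in such a fit. The log2 difference moved most for Apob (-8.49 without S4KO_D4 replicate 2) and Atp7a (-4.16 without S4KO_D0 replicate 1). Without WT_D0 replicate 2 the calls of Gata6, Sox7, Tgfbr3, Apob, Cubn, Ctsh and Plekha4 were all among those lost.

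Of the 26 genes, 6 were called higher in S4KO_D0 than in WT_D0 and were not called at day 4, and in all 6 both WT_D0 libraries lay below all 8 libraries of those other groups. Chml, a Rab escort protein gene, had 37.9 and 39.2 CPM in S4KO_D4, 40.8 and 23.4 CPM in WT_D4 and 37.2 and 19.3 CPM in S4KO_D0, but 0.192 and 0.368 CPM in WT_D0 (-6.37 ± 0.59, adjusted p = 0.000641). Atp7a, a copper transporter gene, had 26.1 and 20.1 CPM in S4KO_D4, 27.6 and 17.5 CPM in WT_D4 and 19.01 and 5.53 CPM in S4KO_D0, but 0.192 and 0.411 CPM in WT_D0 (-5.29 ± 0.81, adjusted p = 0.0287). Nr2c2, a nuclear receptor gene, had 12.8 to 58.7 CPM in those 8 libraries, against 1.68 and 2.12 CPM in WT_D0 (-4.0 ± 0.60, adjusted p = 0.0276). Wnk3, a kinase gene, had 14.5 to 111 CPM in the 8, against 1.20 and 2.55 CPM in WT_D0 (-3.68 ± 0.59, adjusted p = 0.0375). The mitochondrial gene mt-Nd4l, a subunit of complex I, had 129 to 299.7 CPM in the 8, against 26.9 and 48.3 CPM in WT_D0 (-3.17 ± 0.46, adjusted p = 0.0230). 1700013H16Rik had 2.77 to 88.5 CPM in the 8, against 2.16 and 2.03 CPM in WT_D0 (-2.70 ± 0.41, adjusted p = 0.0276). In these genes except 1700013H16Rik the WT_D0 libraries are the low ones and the knockout is not. For 1700013H16Rik, S4KO_D4 was low too, at 3.51 and 2.77 CPM, against 8.63 and 6.51 CPM in WT_D4. The top of its range came from S2/3DKO_D4, at 74.7 and 88.5 CPM. Ribosomal-protein genes took 13.8% and 10.1% of the counts in WT_D0 and between 4.72% and 7.3% in all other libraries, and the part of this in the comparisons with day 0 was not tested. The Chml call held without each library, and on log2(FPKM + 1) values in limma its difference was -1.84 and not called (adjusted p = 0.0539 with the filter on low values and 0.0937 without). The calls of Atp7a, Nr2c2, Wnk3, mt-Nd4l and 1700013H16Rik were each lost without WT_D0 replicate 1, WT_D4 replicate 1 or either S4KO_D4 library (0.0592 to 0.218).

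**Figure D5:**
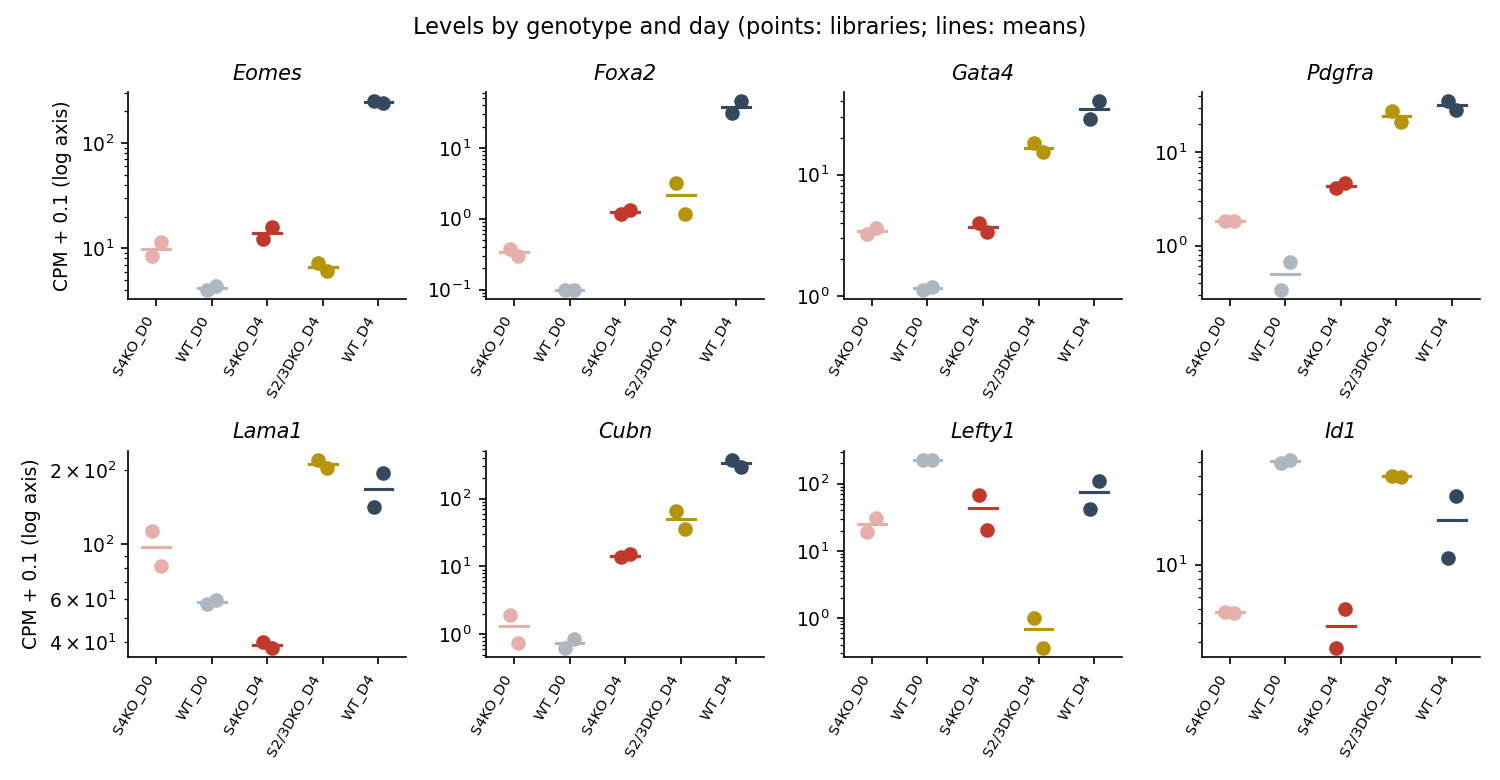
CPM plus 0.1 on log axes for 8 genes in 5 groups, in the order S4KO_D0, WT_D0, S4KO_D4, S2/3DKO_D4 and WT_D4; points are libraries and lines group means. Eomes, Foxa2, Gata4 and Pdgfra are highest in WT_D4, Lama1 is lowest in S4KO_D4, and Lefty1 is lowest in S2/3DKO_D4.

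The embryoid bodies without Smad2 and Smad3 are the closest comparison in the series, and S4KO_D4 was tested against S2/3DKO_D4 directly, with no WT library in the contrast. Of the genes tested 2298 (12.3%) differed, 1092 higher (5.84%) and 1206 lower (6.45%) in S4KO_D4. The count fell to 747 without S2/3DKO_D4 replicate 1, 632 without S2/3DKO_D4 replicate 2, 1349 without S4KO_D4 replicate 1 and 1050 without S4KO_D4 replicate 2. The S2/3DKO_D4 libraries also differed from WT_D4 by chromosome. Of 6 Y-linked genes 5 were higher and 0 lower in S4KO_D4 than in S2/3DKO_D4 (median log2 difference 5.86). Their median was -6.31 in S2/3DKO_D4 against WT_D4, where that of chromosome 18 was 0.27. The part of such differences between the lines in the calls was not tested. Both Lefty genes were higher in S4KO_D4. Lefty1 had 67.04 and 20.2 CPM in S4KO_D4, against 0.892 and 0.257 CPM in S2/3DKO_D4 (log2 difference 6.23 ± 0.76, adjusted p = 0.000692), and Lefty2 had 66.8 and 17.9 CPM in S4KO_D4, against 2.39 and 0.147 CPM in S2/3DKO_D4 (log2 difference 5.04 ± 0.97, adjusted p = 0.00720). Both S4KO_D4 libraries kept the transcripts and both S2/3DKO_D4 libraries nearly lacked them, and the calls held without each library (at most 0.0321). Of 30 genes named in this contrast 10 had a fold difference that moved by over 1.5-fold with 1 library left out. The log2 difference moved most for Mixl1 (8.25, against a lone library with no count, so no bound) and Lefty2 (8.13) without S2/3DKO_D4 replicate 1. Next came Fgf5 (1.66) without S4KO_D4 replicate 2.

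Streak genes were low in both knockouts, and 5 of the 18 were higher and 0 lower in S4KO_D4 (median 0.79). Eomes had 12.2 and 15.8 CPM in S4KO_D4, against 7.15 and 5.92 CPM in S2/3DKO_D4 (log2 difference 1.10 ± 0.25, adjusted p = 0.0158). Mixl1 had 0.396 and 1.27 CPM in S4KO_D4, against 0.116 and 0 CPM in S2/3DKO_D4 (log2 difference 3.69 ± 0.87, adjusted p = 0.0189), Lhx1 had 0.623 and 2.33 CPM in S4KO_D4, against 0.215 and 0.165 CPM in S2/3DKO_D4 (log2 difference 2.90 ± 0.71, adjusted p = 0.0244), and Fgf8 had 0.774 and 2.30 CPM in S4KO_D4, against 0.248 and 0.238 CPM in S2/3DKO_D4 (log2 difference 2.62 ± 0.71, adjusted p = 0.0341). These 4 calls were lost without S4KO_D4 replicate 2, the higher of the S4KO_D4 libraries (0.105 to 0.229), and without S2/3DKO_D4 replicate 2 (0.112 to 0.176). Those of Eomes (0.0773), Lhx1 (0.119) and Fgf8 (0.16) were also lost without S2/3DKO_D4 replicate 1. Of the 12 endoderm factors 3 were lower and 0 higher in S4KO_D4 (median -0.98), namely Gata4, Gata6 and Sox7. Foxa2 was not called (-0.85, adjusted p = 0.312). Gata4 had 3.89 and 3.27 CPM in S4KO_D4, against 18.02 and 15.1 CPM in S2/3DKO_D4 (log2 difference -2.21 ± 0.29, adjusted p = 0.00101), and Gata6 had 2.53 and 1.52 CPM in S4KO_D4, against 12.3 and 8.80 CPM in S2/3DKO_D4 (log2 difference -2.37 ± 0.50, adjusted p = 0.0112). Sox7 had 1.001 and 1.74 CPM in S4KO_D4, against 4.97 and 6.23 CPM in S2/3DKO_D4 (log2 difference -2.04 ± 0.42, adjusted p = 0.0106). Of the 13 visceral endoderm products 2 were lower in S4KO_D4, and of the 10 endocytic genes 2, beside 6.45% of all genes. Of the 11 basement membrane genes 6 were lower. None of these lists held a higher gene. Lama1 had 39.9 and 37.7 CPM in S4KO_D4, against 221 and 204 CPM in S2/3DKO_D4 (log2 difference -2.45 ± 0.24, adjusted p = 0.000195), and Cubn had 13.7 and 14.99 CPM in S4KO_D4, against 64.9 and 35.01 CPM in S2/3DKO_D4 (log2 difference -1.80 ± 0.50, adjusted p = 0.0389). Tgfbr3, of the receptor list, had 4.36 and 10.5 CPM in S4KO_D4, against 27.02 and 24.1 CPM in S2/3DKO_D4 (log2 difference -1.79 ± 0.38, adjusted p = 0.0119). Gata4, Gata6, Sox7, Lama1, Cubn and Tgfbr3 were lower in both S4KO_D4 libraries than in either S2/3DKO_D4 library. The calls of Gata4 and Lama1 held without each library (at most 0.0105). Gata6 was lost without S2/3DKO_D4 replicate 1 (0.0687) or S4KO_D4 replicate 2 (0.0814), Sox7 without S2/3DKO_D4 replicate 2 (0.0802) or S4KO_D4 replicate 1 (0.0684), Tgfbr3 without S2/3DKO_D4 replicate 1 (0.0606), and Cubn when any 1 of the 4 was left out (0.0632 to 0.244).

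BMP targets also separated the knockouts. Id1 had 2.62 and 4.88 CPM in S4KO_D4, against 40.1 and 39.3 CPM in S2/3DKO_D4 (log2 difference -3.41 ± 0.46, adjusted p = 0.00126), and Id2 had 7.51 and 12.6 CPM in S4KO_D4, against 66.5 and 69.4 CPM in S2/3DKO_D4 (log2 difference -2.76 ± 0.28, adjusted p = 0.000264). Of the 16 BMP targets 7 were lower and 0 higher in S4KO_D4 (median -2.45). Of 19 neuroectoderm genes 8 were higher and 1 lower (median 1.47), and of 16 primed epiblast genes 7 were higher and 0 lower (median 1.54). Among the higher ones were Sox1 with 7.78 and 24.4 CPM in S4KO_D4 against 1.06 and 0.697 CPM in S2/3DKO_D4 (log2 difference 4.19 ± 0.61, adjusted p = 0.00189), Pax6 with 18.97 and 15.1 CPM in S4KO_D4 against 1.54 and 1.03 CPM in S2/3DKO_D4 (log2 difference 3.73 ± 0.55, adjusted p = 0.00189) and Fgf15 with 5.76 and 11.4 CPM in S4KO_D4 against 1.16 and 0.916 CPM in S2/3DKO_D4 (log2 difference 3.04 ± 0.36, adjusted p = 0.000579). The lower one was Ncam1, a neural adhesion molecule gene, with 10.3 and 5.13 CPM in S4KO_D4 against 18.9 and 24.2 CPM in S2/3DKO_D4 (log2 difference -1.48 ± 0.41, adjusted p = 0.0376), whose call was lost without S4KO_D4 replicate 2 (0.228) or either S2/3DKO_D4 library (0.0932 and 0.205). Fgf5 had 8.84 and 98.9 CPM in S4KO_D4, against 2.77 and 2.80 CPM in S2/3DKO_D4 (log2 difference 4.27 ± 0.98, adjusted p = 0.0171), and lost its call without S4KO_D4 replicate 2 (0.197) or either S2/3DKO_D4 library (0.117 and 0.124). All 17 trophoblast genes were lower in S4KO_D4, with a median of -3.87. Against WT_D4, the trophoblast median was 3.73 in S2/3DKO_D4 and 0.05 in S4KO_D4. The medians against WT_D4 were, in the same order, 1.44 and -0.56 for BMP targets and -2.44 and -1.16 for primed epiblast genes. For neuroectoderm genes they were -0.0405 and 0.845. Of the Smads, Smad9 had 0.245 and 0.187 CPM in S4KO_D4, against 2.34 and 1.78 CPM in S2/3DKO_D4 (log2 difference -3.22 ± 0.49, adjusted p = 0.00218), and Smad1 had 22.6 and 29.1 CPM in S4KO_D4, against 13.2 and 12.8 CPM in S2/3DKO_D4 (log2 difference 0.99 ± 0.24, adjusted p = 0.0216). The Smad1 call was lost without S4KO_D4 replicate 2 (0.144) or either S2/3DKO_D4 library (0.147 and 0.175).

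The genes given here by the rule in this contrast were each called without any 1 of the 4 libraries. Hprt and Tex13b were among the higher ones. Sfrp1 (chromosome 8), a secreted Wnt antagonist, had 71.2 and 51.2 CPM in S4KO_D4, against 8.80 and 6.18 CPM in S2/3DKO_D4 (log2 difference 3.03 ± 0.27, adjusted p = 0.000121). Stmn2, a tubulin-binding protein gene, had 94.1 and 75.01 CPM in S4KO_D4, against 16.4 and 15.5 CPM in S2/3DKO_D4 (log2 difference 2.41 ± 0.22, adjusted p = 0.000134), and Slc43a1, an amino acid transporter gene, had 15.4 and 20.3 CPM in S4KO_D4, against 2.34 and 1.78 CPM in S2/3DKO_D4 (log2 difference 3.11 ± 0.30, adjusted p = 0.000196). Among the lower ones, Gjb2 (connexin 26) had 1.06 and 0.777 CPM in S4KO_D4, against 86.3 and 87.5 CPM in S2/3DKO_D4 (log2 difference -6.55 ± 0.44, adjusted p = 4.95e-05), and Dio3, a thyroid hormone deiodinase gene, had 0.434 and 0.311 CPM in S4KO_D4, against 19.998 and 28.4 CPM in S2/3DKO_D4 (log2 difference -5.99 ± 0.42, adjusted p = 4.95e-05). Syna (syncytin A, of the placental syncytium) had 0.415 and 0.373 CPM in S4KO_D4, against 30.2 and 30.2 CPM in S2/3DKO_D4 (log2 difference -6.24 ± 0.45, adjusted p = 4.95e-05). Slc6a8, the creatine transporter, had 49.1 and 38.9 CPM in S4KO_D4, against 259 and 297 CPM in S2/3DKO_D4 (log2 difference -2.66 ± 0.20, adjusted p = 6.29e-05). In WT_D4 these 4 stood at 2.69 and 2.24 CPM for Gjb2, 0.793 and 0.594 CPM for Dio3, 0.295 and 0.421 CPM for Syna and 40.7 and 47.2 CPM for Slc6a8. None of the 4 was called in S4KO_D4 against WT_D4.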

How the data were processed

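RNA was sequenced from 12 libraries in 6 groups of 2, of which the results use 10. Per the labels, total RNA went through TruSeq v2 library preparation. The authors deposited whole-number read counts per gene, not normalized, and FPKM values per transcribed gene. The submitters' processing notes name the build mm10, Cufflinks, StringTie and DESeq2 without versions; the aligner, annotation and strand setting are not given in the sources used here. Gene IDs were matched to GENCODE M21 symbols (32235 matched, 50 not).

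Counts were tested with edgeR 4.0.16 (R 4.3.3): filterByExpr, TMM scaling and quasi-likelihood tests on 1 coefficient per group over all 12 libraries, 18693 genes, Benjamini-Hochberg adjusted p below 0.05. A standard error is the absolute log2 fold change over the square root of F. The deposited FPKM values served in limma 3.58.1 with pseudocounts of 1 and 0.1, and DESeq2 1.42.0 as an alternative. Depth was 31566376 to 55806858 counts per library. The fits were tested on simulated data.

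Members and 36 gene lists were chosen with earlier results of these data known. Named genes were the 10 largest rises and 10 largest drops among called genes with established names, groups that did not overlap and at least 5 CPM in the higher group; list members; the widest replicate ratios among genes of at least 10 CPM; and the 5 most significant genes per direction of the other contrasts. Chml, Atp7a, Nr2c2, Wnk3, mt-Nd4l, 1700013H16Rik and the list members given for the other contrasts were chosen after their values were seen. Some genes that the rule names are not reported here.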

Additional observations from a re-analysis of the deposited data

Results flagged for a closer look

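The effect of the knockout on 28 genes differed between day 4 and day 0 by a test of the difference itself, edgeR's quasi-likelihood test on the contrast of the effects with Benjamini-Hochberg adjustment over all genes. Values are log2 differences, the S4KO_D4 minus WT_D4 effect less the S4KO_D0 minus WT_D0 effect, with n = 2 libraries in each group. The streak gene Eomes gave -5.39 ± 0.37, adjusted p = 0.000175. The endoderm factors Gata4 (-4.92 ± 0.42, adjusted p = 0.000430), Gata6 (-5.54 ± 0.74, adjusted p = 0.0149) and Sox7 (-4.51 ± 0.65, adjusted p = 0.0230) were negative as well. So were Pdgfra (-4.98 ± 0.56, adjusted p = 0.00412), the laminin gene Lama1 (-2.86 ± 0.32, adjusted p = 0.00412) and the co-receptor gene Tgfbr3 (-4.01 ± 0.55, adjusted p = 0.0174). Products and endocytic genes of visceral endoderm gave values in the same direction, Apob -6.96 ± 1.01, adjusted p = 0.0230, Cubn -5.46 ± 0.80, adjusted p = 0.0230 and Ctsh -4.14 ± 0.54, adjusted p = 0.0116. Cemip (-7.84 ± 0.67, adjusted p = 0.000430), Adamts9 (-3.43 ± 0.29, adjusted p = 0.000430) and Srgn (-5.16 ± 0.46, adjusted p = 0.000497) were also negative, and Plekha4 was positive (3.49 ± 0.53, adjusted p = 0.0287). Chml (-6.37 ± 0.59, adjusted p = 0.000641), Atp7a (-5.29 ± 0.81, adjusted p = 0.0287), Nr2c2 (-4.0 ± 0.60, adjusted p = 0.0276), Wnk3 (-3.68 ± 0.59, adjusted p = 0.0375), mt-Nd4l (-3.17 ± 0.46, adjusted p = 0.0230) and 1700013H16Rik (-2.70 ± 0.41, adjusted p = 0.0276) were lowest in WT_D0 among the groups compared.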

How the results depend on the processing

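The count of 323 genes called in S4KO_D4 against WT_D4 was 754 without the expression filter, 1057 with DESeq2, 128 with the groups of the contrast alone, 906 with the length and GC correction, 646 with unfiltered log2(FPKM + 1) values, and between 78 and 578 with 1 library left out. The 28 calls for the difference between the days became 47 with RLE size factors, 61 with a minimum of 1 CPM in 2 libraries, 862 without the filter, 1590 with DESeq2, 92 with the correction, 128, 244 and 74 with filtered, unfiltered and 0.1-pseudocount FPKM values, and 14 to 2008 with 1 library left out. The 2298 calls against S2/3DKO_D4 became 4508 with only those groups, 4011 with the correction and 632 to 1349 with 1 library left out. The 59 called genes on the lists became 112 without the filter, 115 with DESeq2, 93 with the correction and 23 to 84 with 1 library left out. Adjusting the p-values over the genes outside chromosome 8 alone, an alternative chosen after seeing the data, gave 250 calls there (76 higher and 174 lower), against 84 higher and 192 lower with the adjustment over all genes. Causes of these shifts were not tested.

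Replicate numbers did not pair the samples: the deviations of same-numbered S4KO_D4 and WT_D4 libraries correlated at 0.0314, and over all pairs of groups between -0.126 and 0.291. With the replicate block the counts were 281, 24, 2240 and 57 in the same order, and with block and correction together 805, 78, 3811 and 92.

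None of the 70 genes called against WT_D4 whose alternatives were tabulated changed direction. All called genes had groups that did not overlap in CPM, so leaving out 1 library could hardly turn their direction. Among uncalled genes the log2 fold change turned without the filter for Smad2 (-0.0259), Smad4 (-0.014) and Nanog (-0.00697). With 1 library left out it spanned 0 for Foxa3 (-0.53 to 0.20), Fstl3 (-0.0737 to 0.55), Id2 (-0.68 to 0.016), Lefty1 (-1.91 to 0.0185), Nanog (-0.40 to 0.39), Nbl1 (-1.17 to 0.27), Pou5f1 (-0.84 to 0.11), Smad2 (-0.28 to 0.33), Smad4 (-0.12 to 0.15) and Smad6 (-1.30 to 0.15). The median of 13 of the 36 lists changed sign under at least 1 alternative: ligands, receptors, basement membrane, mesoderm, blood and endothelium, neuroectoderm, imprinted genes, feeder markers, mesenchyme, epithelial adhesion, FGF targets, p53 targets and trophoblast. S4KO_D4 replicate 2 had the lowest depth, 31566376 counts, which limits what low genes can show.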

Other observations

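Of 16 genes of mesenchyme and epithelial-mesenchymal transition 1 rose and 1 fell (median log2 fold change -0.53). The median was 0.10 without S4KO_D4 replicate 1 and -1.21 without replicate 2, where 3 genes were called higher and 4 lower. Tgfbi, a matrix protein gene, had 14.95 and 5.35 CPM in S4KO_D4, against 1.68 and 2.16 CPM in WT_D4 (log2 fold change 2.41 ± 0.46, adjusted p = 0.0269), and Cdh11 (chromosome 8), a mesenchymal cadherin gene, had 1.08 and 3.33 CPM in S4KO_D4, against 23.6 and 18.4 CPM in WT_D4 (log2 fold change -3.27 ± 0.49, adjusted p = 0.00874). Of 20 hypoxia and glycolysis genes 1 rose (median 0.17), Ankrd37 (chromosome 8), with 20.7 and 18.4 CPM in S4KO_D4, against 6.42 and 7.26 CPM in WT_D4 (log2 fold change 1.51 ± 0.27, adjusted p = 0.0214). The Cdh11 call held without each library (adjusted p at most 0.0492). Tgfbi lost its call without WT_D4 replicate 1 (0.143), WT_D4 replicate 2 (0.0797) or S4KO_D4 replicate 1 (0.181), and Ankrd37 without the same libraries (0.116, 0.0677 and 0.144). Of 10 Smad cofactor genes 2 fell, Eomes and Mixl1 (median -0.31), and of 17 trophoblast genes 1 rose, Tfap2c (median 0.05).

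No member was called in 11 further lists. All 12 genes of the 2-cell stage had negative fold changes (median -1.15), and all 10 cell cycle inhibitors had positive ones (median 0.44). The medians were 0.41 for 12 LIF targets, -0.09 for 13 FGF targets, -0.36 for 12 epithelial adhesion genes, 1.32 for 10 Hox genes, 0.01 for 15 p53 targets, -0.12 for 18 replication and mitosis genes and -0.45 for 6 Y-linked genes. The Hox median was 0.06 without S4KO_D4 replicate 1. The shared pluripotency and feeder lists are given above.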
